A study of Mus musculus with 8 samples.

Results

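Genes that mark or specify the mesoderm and endoderm were followed in RGd2 mouse ESCs maintained in 4 culture conditions. The 10 genes were chosen by name, as T, Mixl1, Eomes, Gsc, Foxa2, Sox17, Gata4, Gata6, Cer1 and Mesp1, and each was found once among the 38991 genes measured. RGd2 (Rex1GFPd2) is an ESC line of strain 129 in which a destabilised GFP reports Rex1, and all cultures came from this single line. Cells kept in 2i for 6 passages were moved for another 5 passages, to passage 11, into serum-free N2B27 medium on gelatin with a chosen combination of the cytokine LIF, the GSK3 inhibitor CH (CHIR99021, 3 µM) and the MEK inhibitor PD (PD0325901, 1 µM). The 4 conditions were 2i+LIF (CH, PD and LIF), 2i (CH and PD, no LIF), CH+LIF (no PD) and LIF+PD (no CH). Each was measured by RNA-seq in 2 cultures, 8 in all. The labels do not say whether replicates were grown separately, so the tests below measure the spread between these samples, which may be technical.

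In the gastrulating embryo, mesoderm and definitive endoderm arise from epiblast cells that pass through the primitive streak, under Wnt, Nodal and FGF signals. Wnt signals stabilise β-catenin, which is also what inhibition of GSK3 does, and β-catenin acts on target genes through TCF/LEF factors; FGF acts largely through MEK and ERK, the step blocked by PD. The primitive endoderm is an earlier, extra-embryonic lineage that uses several of the same factors, Gata4, Gata6, Sox17 and Foxa2 among them.

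To show the start of the 3 members whose levels differed most between conditions, the bases just upstream of T, Eomes and Gsc are given from RefSeq (GRCm38.p6), 5′ to 3′ on the strand of the gene. Capitals mark CTTTG, the core of the TCF/LEF motif, or its reverse complement CAAAG. The T stretch is chr17:8434173-8434422 (plus strand), that of Eomes chr9:118477939-118478188 (plus strand) and that of Gsc chr12:104473331-104473486 (minus strand), the last kept short because the bases that follow lie within the annotated gene.
T: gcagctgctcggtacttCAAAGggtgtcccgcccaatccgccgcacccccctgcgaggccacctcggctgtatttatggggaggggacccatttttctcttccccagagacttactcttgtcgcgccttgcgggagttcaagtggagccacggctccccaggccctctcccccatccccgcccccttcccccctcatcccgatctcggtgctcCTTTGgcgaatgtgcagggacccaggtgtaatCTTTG
Eomes: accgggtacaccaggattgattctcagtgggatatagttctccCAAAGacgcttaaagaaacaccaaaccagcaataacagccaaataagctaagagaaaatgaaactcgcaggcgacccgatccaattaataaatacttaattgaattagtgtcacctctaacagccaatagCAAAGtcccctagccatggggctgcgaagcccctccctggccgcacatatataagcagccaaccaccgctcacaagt
Gsc: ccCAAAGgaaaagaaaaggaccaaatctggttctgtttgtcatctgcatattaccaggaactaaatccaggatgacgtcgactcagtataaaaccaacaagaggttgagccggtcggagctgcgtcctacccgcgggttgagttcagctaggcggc
T holds 3 matches in 250 bases, and 3.94% of all 32851 promoters hold as many or more over the same positions. Eomes holds 2 in 250 bases (15.7% of promoters have as many or more) and Gsc 1 in 156 bases (35.4%). This core was chosen for display after the levels were known. Longer motifs were searched on both strands in 300 bases around the start of the 6 members with a promoter in the table. CTTTGAT, a TCF/LEF motif, was found in promoters of Foxa2 and Mesp1 and in 3.73% of all promoters. TCACACC, a T-box motif, was found in Mesp1 and in 3.98% of all promoters. AGATAA, the motif of factors such as Gata4, was found in Foxa2 and in 11.2%. No member promoter held CTTTGTT (TCF/LEF), TGTTTAC (forkhead), TGTGTATT (FOXH1) or CCATTGT (SOX), which were found in 5.85%, 3.65%, 0.98% and 3.66% of all promoters. A match to these letters describes the sequence and is not a measured binding site.

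Levels are given as FPKM (fragments per kilobase of transcript, scaled to library size), a scale on which genes of different length can be set side by side. The FPKM do not state the number of reads. From weakly expressed genes, the depth relative to replicate 1 of 2i+LIF was estimated at 0.499 for replicate 1 of 2i and at 0.903 to 1.18 for the other 6 cultures. The 12 genes listed as markers of naïve pluripotency summed to between 3556 and 4617 FPKM per culture, of which Pou5f1 (Oct4) alone gave 1625 to 2269. Pou5f1, Sox2 and Sall4 are among them, which the study describes as also expressed in its primed epiblast stem cells. The sum is thus not a measure of the naïve state alone. By the limma test described below, 6 of the 12 were lower than in 2i+LIF in 2i, 5 in LIF+PD and 5 in CH+LIF. Of all genes tested, 8.86%, 10.4% and 13.3% were lower. In LIF+PD 2 of the 12 were higher, and in 2i and CH+LIF none. Dppa3 was at 66.05 and 47.91 FPKM in 2i+LIF and at 2.37 and 2.30 in CH+LIF. The fibroblast gene Postn stood apart in a single culture, with 14.1 FPKM in replicate 2 of CH+LIF and at most 0.0338 elsewhere. Neither the labels nor the study's methods name a batch. In bulk RNA, a change in the number of cells that express a gene cannot be told apart from a change in RNA per cell.

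Most of the 10 lineage factors were scarce in these ESCs. T reached 36.3 FPKM, Eomes 9.98 and Gsc 7.71, whereas the highest value of any other member was 1.93 (Gata4). The deposited values carry a lower bound, which was above 0 in all 8 cultures for Mixl1, Eomes and Gata4, in 7 for Gsc, in 6 for T and in 1 for Gata6. For Foxa2, Sox17 and Mesp1 it was 0 in every culture, and Cer1 was listed at 0 throughout. The genome-wide test was limited to genes that reached 1 FPKM in 2 or more cultures, which 4 members did (T, Eomes, Gsc and Gata4) and the other 6 did not.

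**Figure D1:**
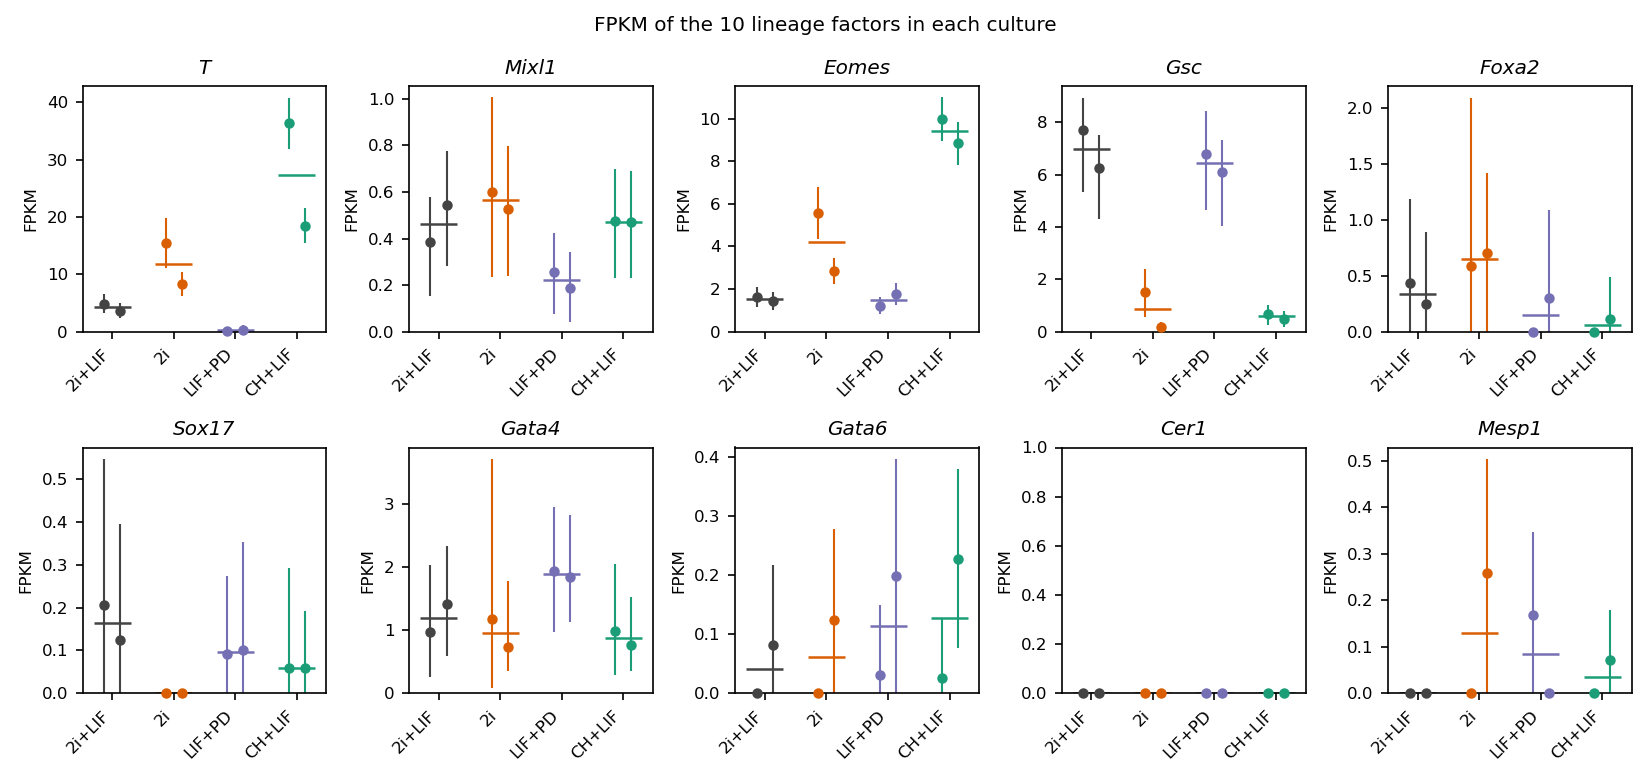
FPKM of each of the 10 members (vertical axes, a separate linear scale per gene) in the 4 conditions (horizontal axis). Points are the 2 cultures, thin vertical lines the deposited lower and upper bounds, and short horizontal lines the condition mean. T and Eomes were highest in CH+LIF, Gsc was highest in 2i+LIF and LIF+PD, and Cer1 lies at 0 in all 8 cultures.

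T (Brachyury, ENSMUSG00000062327, chr17:8434423-8442496, plus strand) is the T-box factor of the primitive streak and nascent mesoderm. Its FPKM was 4.86 and 3.64 in 2i+LIF, 15.4 and 8.24 in 2i, 36.3 and 18.5 in CH+LIF, and 0.161 and 0.210 in LIF+PD. The order of the conditions was thus CH+LIF, 2i, 2i+LIF, LIF+PD, with no overlap between neighbours. In LIF+PD, the only condition without CH, the lower bound was 0 in both cultures and the upper bounds were 0.647 and 1.10. On the log2(FPKM + 1) scale, T fell by 2.14 ± 0.36 (SE) from 2i+LIF to LIF+PD (adjusted p = 0.00613) and the difference of LIF+PD from 2i was -3.38 ± 0.36 (adjusted p = 0.000831). It rose by 2.37 ± 0.36 from 2i+LIF to CH+LIF (adjusted p = 0.00468), with mean FPKM of 4.25 ± 0.864 and 27.4 ± 12.6 (SD, n = 2), and was 4.51 ± 0.36 higher in CH+LIF than in LIF+PD (adjusted p = 0.000248). The other 2 neighbouring steps did not pass: the difference was 1.24 ± 0.36 between 2i and 2i+LIF (adjusted p = 0.0543) and 1.13 ± 0.36 between CH+LIF and 2i (adjusted p = 0.0604). Both depended on single cultures. The first passed without replicate 2 of 2i (adjusted p = 0.0423) or without replicate 1 or 2 of CH+LIF (0.0359 and 0.0355), and the second without replicate 1 of 2i (0.0472) or replicate 2 of CH+LIF (0.0363).

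Eomes (ENSMUSG00000032446, chr9:118478212-118486132, plus strand) encodes a T-box factor needed for definitive endoderm and for the exit of mesoderm from the streak, and it also acts in trophoblast. Its FPKM was 1.63 and 1.42 in 2i+LIF, 5.58 and 2.85 in 2i, 9.98 and 8.85 in CH+LIF, and 1.22 and 1.76 in LIF+PD. Both CH+LIF cultures lay above the other 6, and the 2i cultures lay between them and the remaining 4. Eomes rose by 2.04 ± 0.26 on the log2 scale from 2i+LIF to CH+LIF (adjusted p = 0.00249) and was 2.07 ± 0.26 higher in CH+LIF than in LIF+PD (adjusted p = 0.00139). Between LIF+PD and 2i+LIF, whose values overlap, the difference was -0.03 (95% interval -0.63 to 0.58, adjusted p = 0.952). For T, the mean FPKM in LIF+PD was 22.9 times lower than in 2i+LIF, a ratio that rests on LIF+PD values with a lower bound of 0. Eomes was higher in 2i than in 2i+LIF by 1.00 ± 0.26 (adjusted p = 0.0370). It rose from 2i to CH+LIF by a further 1.05 ± 0.26 (adjusted p = 0.0267), and the difference of LIF+PD from 2i was -1.02 ± 0.26 (adjusted p = 0.0265). The comparison of 2i with 2i+LIF was lost on leaving out any of 7 of the 8 cultures, with adjusted p between 0.0524 (without replicate 1 of LIF+PD) and 0.147 (without replicate 2 of 2i+LIF), and its size dropped to 0.61 without replicate 1 of 2i, the culture of lowest estimated depth. The gain in CH+LIF over 2i was lost without replicate 2 of 2i (0.66, adjusted p = 0.0699), replicate 1 of CH+LIF (0.97, adjusted p = 0.124) or its replicate 2 (1.12, adjusted p = 0.0816), and the difference of LIF+PD from 2i without replicate 1 of 2i (-0.64, adjusted p = 0.0834) or either LIF+PD culture (adjusted p = 0.128 and 0.0597).

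Gsc (goosecoid, ENSMUSG00000021095, chr12:104471210-104473324, minus strand) is a homeobox gene of the anterior streak and organiser. Its FPKM was 7.71 and 6.26 in 2i+LIF, 1.53 and 0.175 in 2i, 0.654 and 0.499 in CH+LIF, and 6.77 and 6.10 in LIF+PD. The cultures formed a high pair of conditions, 2i+LIF and LIF+PD, and a low pair, 2i and CH+LIF, with at least 6.10 FPKM in the former and at most 1.53 in the latter. Gsc thus had its lower levels in the 2 conditions in which T was highest. Gsc fell by 2.21 ± 0.33 on the log2 scale from 2i+LIF to 2i (adjusted p = 0.00491) and fell by 2.34 ± 0.33 from 2i+LIF to CH+LIF (adjusted p = 0.00369). The level in LIF+PD was 2.11 ± 0.33 higher than in 2i (adjusted p = 0.00432), and in CH+LIF the difference from LIF+PD was -2.24 ± 0.33 (adjusted p = 0.00289). Within the high pair the difference of LIF+PD from 2i+LIF was -0.10 (95% interval -0.88 to 0.68, adjusted p = 0.857), and within the low pair that of CH+LIF from 2i was -0.13 (-0.91 to 0.65, adjusted p = 0.805). In replicate 2 of 2i the lower bound of Gsc was 0, and without replicate 1 of 2i the difference of CH+LIF from 2i was 0.42 (adjusted p = 0.193).

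Of the remaining mesoderm factors, Mixl1 (ENSMUSG00000026497, chr1:180693043-180697034, minus strand), a homeobox gene of the streak, was low but present in every culture. Its FPKM was 0.384 and 0.545 in 2i+LIF, 0.598 and 0.529 in 2i, 0.476 and 0.469 in CH+LIF, and 0.256 and 0.189 in LIF+PD. The 2 cultures without CH lay below the other 6, as for T, but the other 3 conditions overlapped or differed little. Mesp1 (ENSMUSG00000030544, chr7:79792241-79793788, minus strand), the bHLH factor of early cardiac mesoderm, was listed at 0 in 5 cultures. It was at 0.259 in replicate 2 of 2i, 0.0703 in replicate 2 of CH+LIF and 0.167 in replicate 1 of LIF+PD, so no condition had a value in both cultures.

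Foxa2 (ENSMUSG00000037025, chr2:148042877-148046969, minus strand) is a forkhead factor of the anterior streak, endoderm and notochord. Its FPKM was 0.431 and 0.249 in 2i+LIF, 0.590 and 0.703 in 2i, 0 and 0.114 in CH+LIF, and 0 and 0.302 in LIF+PD. The 2i cultures were above the other 6, but all lower bounds were 0. Sox17 (ENSMUSG00000025902, chr1:4490928-4496413, minus strand), an HMG-box factor of both endoderm lineages, had 0.205 and 0.125 in 2i+LIF, was listed at 0 in both 2i cultures, and had 0.0586 and 0.0579 in CH+LIF and 0.0911 and 0.101 in LIF+PD. The 4 conditions did not overlap, but again all lower bounds were 0 and the highest upper bound was 0.547. Cer1 (ENSMUSG00000038192, chr4:82881751-82885148, minus strand), a secreted antagonist of Nodal, Wnt and BMP made in anterior endoderm, was listed at 0 with bounds of 0 in all 8 cultures, and no condition can be compared.

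Gata4 (ENSMUSG00000021944, chr14:63198922-63271692, minus strand) and Gata6 (ENSMUSG00000005836, chr18:11052510-11085635, plus strand) are zinc finger factors of primitive endoderm, definitive endoderm and heart mesoderm. The FPKM of Gata4 was 0.973 and 1.41 in 2i+LIF, 1.17 and 0.725 in 2i, 0.986 and 0.756 in CH+LIF, and 1.93 and 1.83 in LIF+PD. The LIF+PD cultures were above the other 6, and the other 3 conditions overlapped. Gata4 was lower in CH+LIF than in LIF+PD (log2 difference -0.63 ± 0.19, adjusted p = 0.0455), a call that was lost on leaving out 6 of the 8 cultures (each of 2i+LIF, CH+LIF and LIF+PD), with adjusted p between 0.0571 and 0.174. The difference of LIF+PD from 2i was 0.58 ± 0.19 (adjusted p = 0.0676) and from 2i+LIF 0.40 ± 0.19 (adjusted p = 0.169). Gata6 had 0 and 0.0815 in 2i+LIF, 0 and 0.123 in 2i, 0.0255 and 0.227 in CH+LIF, and 0.0297 and 0.198 in LIF+PD. Replicate 2 was the higher culture in all 4 conditions, and the conditions overlapped. The gene overlaps 1010001N08Rik, which was at no more than 0.143 FPKM.

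Read by comparison, the counts of members stand beside the share of all 12927 tested genes that passed the same test. Without LIF (2i against 2i+LIF), 2 of the 4 tested members passed, Eomes higher and Gsc lower. Of all genes tested, 18.6% passed, 9.77% higher and 8.86% lower. Without CH (LIF+PD against 2i+LIF), 1 passed, T lower, against 25.2% of genes, 14.8% higher and 10.4% lower. Without PD (CH+LIF against 2i+LIF), 3 passed, T and Eomes higher and Gsc lower, against 25.4% of genes, 12.2% higher and 13.3% lower. For LIF+PD against 2i, 3 passed, T and Eomes lower and Gsc higher in LIF+PD, against 25.1% of genes, 14% higher and 11.1% lower. For CH+LIF against 2i, 1 passed, Eomes higher in CH+LIF, against 23.9% of genes, 10.6% higher and 13.3% lower. For CH+LIF against LIF+PD, 4 passed, T and Eomes higher and Gsc and Gata4 lower in CH+LIF, against 30.4% of genes, 12.6% higher and 17.8% lower. Without replicate 2 of CH+LIF, the culture with Postn, the differences of CH+LIF from 2i+LIF were 2.84 for T (adjusted p = 0.00836), 2.12 for Eomes (0.0148) and -2.27 for Gsc (0.0228). Without replicate 1 of 2i, the culture of lowest estimated depth, Gsc differed by -2.76 between 2i and 2i+LIF (adjusted p = 0.00136) and T by -2.96 between LIF+PD and 2i (0.00579). The comparisons share cultures and are not independent, and only the 4 members above the filter could pass.

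**Figure D2:**
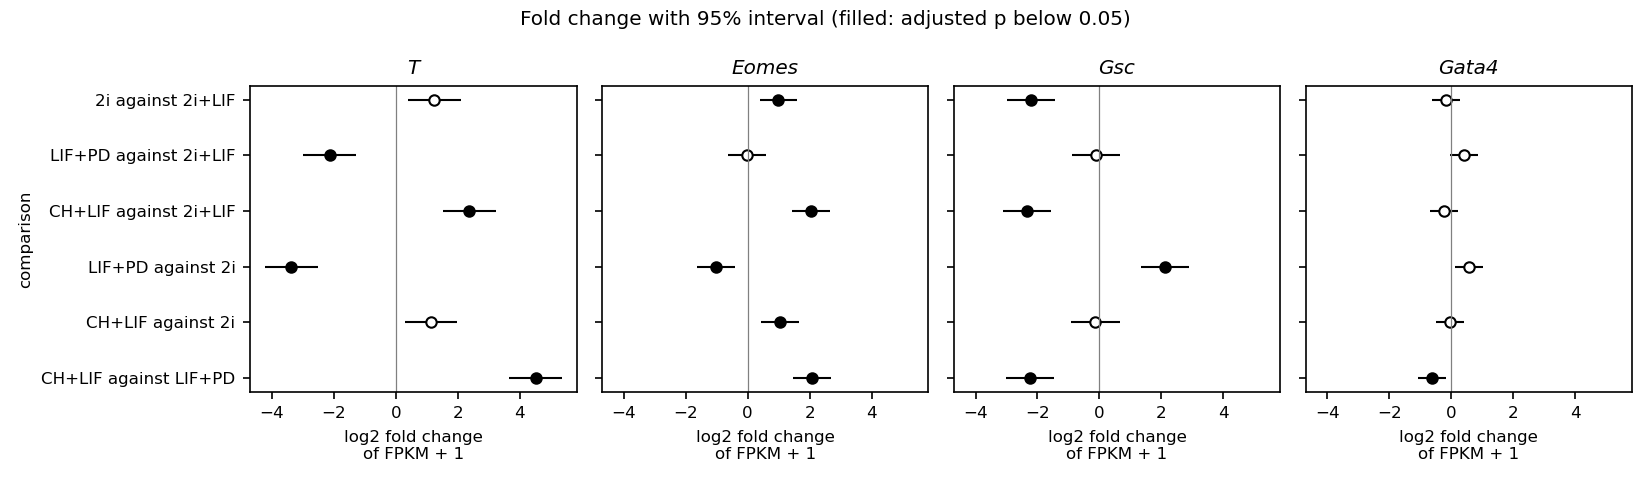
Difference in log2(FPKM + 1) of T, Eomes, Gsc and Gata4 in the 6 comparisons, with 95% intervals from the limma fit. Filled points have an adjusted p below 0.05. T spans from -3.38 (LIF+PD against 2i) to 4.51 (CH+LIF against LIF+PD), and Gsc is near 0 in the comparisons of LIF+PD with 2i+LIF and of CH+LIF with 2i.

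An exact permutation test over all ways to divide 8 cultures into pairs, for which 0.00952 is the smallest possible p, was applied to each member without a filter. The exact permutation p for a difference among conditions was 0.00952 for T and for Sox17, 0.0286 for Eomes, 0.0762 for Mixl1 and Gsc, 0.0857 for Foxa2 and Gata4, 0.790 for Gata6 and 1 for Mesp1. For Sox17 this rests on values whose lower bounds were all 0. Each condition that lacked a component was then compared with the other 6 cultures by a two-sided exact permutation test over 28 arrangements, whose smallest p is 0.0357. Of 27 such tests, not adjusted for their number, 5 reached it. T was lower without CH (log2 difference -3.34), as was Mixl1 (-0.295), and Gata4 was higher (0.535). Eomes was higher without PD (1.72), and Foxa2 was higher without LIF (0.490). T without PD had a difference of 2.67 with an exact permutation p of 0.0714. Gsc, split between pairs of conditions, had an exact permutation p of 0.143 or more in each. In a genome-wide fit with the filter lowered to 0.1 FPKM, Foxa2 was lower in CH+LIF than in 2i (log2 difference -0.64 ± 0.15, adjusted p = 0.0335), and 17.2% of 17446 genes passed this comparison. Both Foxa2 results, like that of Sox17, rest on values whose lower bounds were all 0. Mixl1 did not pass there (LIF+PD from 2i, -0.36 ± 0.10, adjusted p = 0.0582).

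Other genes of the primitive streak and early mesoderm were examined as a list of 28, of which 26 were found and 12 passed the filter. Their summed FPKM was 136 to 159 in 2i+LIF, 115 to 130 in 2i, 177 to 185 in CH+LIF and 16.4 to 20.2 in LIF+PD, so that LIF+PD was lowest, as for T. Without CH, 6 genes fell from 2i+LIF to LIF+PD (Sp5, Cdx1, Cdx2, Nkx1-2, Bmp4 and Snai1) and none rose, where 10.4% of all genes fell and 14.8% rose. The median log2 difference was -0.96 over the 12 genes against 0.03 over all genes tested. Sp5, a direct Wnt target, was at 69.5 and 62.3 FPKM in 2i+LIF and at 0.188 and 0.417 in LIF+PD (log2 difference -5.69 ± 0.15, adjusted p = 6.5e-06). The caudal gene Cdx1 fell from 24.1 and 16.6 FPKM to 0.115 and 0.128 (-4.23 ± 0.26, adjusted p = 0.00014). The list was split on withdrawal of PD. In CH+LIF against 2i+LIF, 2 genes rose (12.2% of all genes did) and 4 fell (13.3%), with a median of -0.32 against 0.01. Bmp4 rose by 2.45 ± 0.17 to 65.9 and 72.5 FPKM (adjusted p = 0.000364) and Evx1 reached 1.62 and 1.07, while Cdx2 fell by 2.16 ± 0.25 to 1.90 and 0.733 FPKM (adjusted p = 0.00193). On withdrawal of LIF, Nkx1-2 and Wnt8a rose and Sp5 and Kdr fell, where 9.77% of all genes rose and 8.86% fell. Wnt8a reached 1 FPKM only in the 2i cultures, and Evx1 only in CH+LIF. Each could enter the test only by being high there, so its rise is no independent result. Among other genes of the list, the presomitic genes Tbx6 and Msgn1 were at no more than 0.364 FPKM and at 0 in every culture, while the blood and vessel genes Etv2, Kdr and Gata2 passed the filter, with 0.802 to 2.83, 0.280 to 1.41 and 0.548 to 4.24 FPKM.

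Of 16 further genes of the anterior streak and definitive endoderm, 7 passed the filter. Between 2i+LIF and LIF+PD, 3 rose (14.8% of all genes did) and 1 fell (10.4%), with a median log2 difference of 0.53 against 0.03 over all genes. Otx2, which also marks formative epiblast and anterior neural tissue, rose from 2.44 and 1.80 FPKM to 50.3 and 49.2 (4.03 ± 0.15, adjusted p = 2.27e-05). Prdm1 rose by 1.36 ± 0.21 (adjusted p = 0.00417), and Trh, which encodes a hormone precursor, fell by 3.71 ± 0.41 (adjusted p = 0.00104). On withdrawal of LIF, Otx2 and Prdm1 rose and none fell, where 9.77% of all genes rose and 8.86% fell. From 2i+LIF to CH+LIF only Fgf17 passed among the 7 (1.39 ± 0.21, adjusted p = 0.00452), where 25.4% of all genes passed. Hhex, a homeobox gene of anterior endoderm, was at 3.28 to 9.89 FPKM over the 8 cultures, above Foxa2 and Sox17 in each. Shh was listed at 0 in every culture, Foxa1 was at 0.179 FPKM or less and Hnf4a at 0.390 or less.

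Gata4 was set beside 25 genes of the primitive endoderm, of which 13 passed the filter. Their summed FPKM was highest in LIF+PD (718 to 757), as was Gata4, and lay at 552 to 554 in 2i+LIF, 427 to 445 in 2i and 351 to 376 in CH+LIF. In LIF+PD against 2i+LIF, 7 rose (14.8% of all genes did) and 1 fell (10.4%), with a median of 0.74 against 0.03. Col4a1 rose from 0.917 and 0.986 FPKM to 41.1 and 42.9 (log2 difference 4.46 ± 0.13, adjusted p = 8.8e-06) and Col4a2 rose by 3.31 ± 0.17 (adjusted p = 7.26e-05). Both encode basement membrane collagen, which many cell types make, and Srgn, Sparc, Lamb1, Lrp2 and Dab2 were the others that rose. Sox7 was at 0.546 and 0.796 FPKM in LIF+PD and at 0.0863 and 0.131 in 2i+LIF. It was also at 0.321 and 0.951 in CH+LIF, where Gata4 had its lowest mean. For LIF+PD against 2i+LIF, Dab2 was at 1.08 and 1.93 against 0.195 and 0.330, and Lrp2 at 3.062 and 4.375 against 0.221 and 0.239. Dab2 reached 1 FPKM only in LIF+PD, so it could enter the test only by being high there. In the same order as before, 2 further genes were compared. Pdgfra was at 0.0838 and 0.108 against 0.0559 and 0.153, and Gata6 at 0.0297 and 0.198 against 0 and 0.0815. Ttr was listed at 0 in all 8 cultures. Whether primitive endoderm cells were present was not tested.

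**Figure D3:**
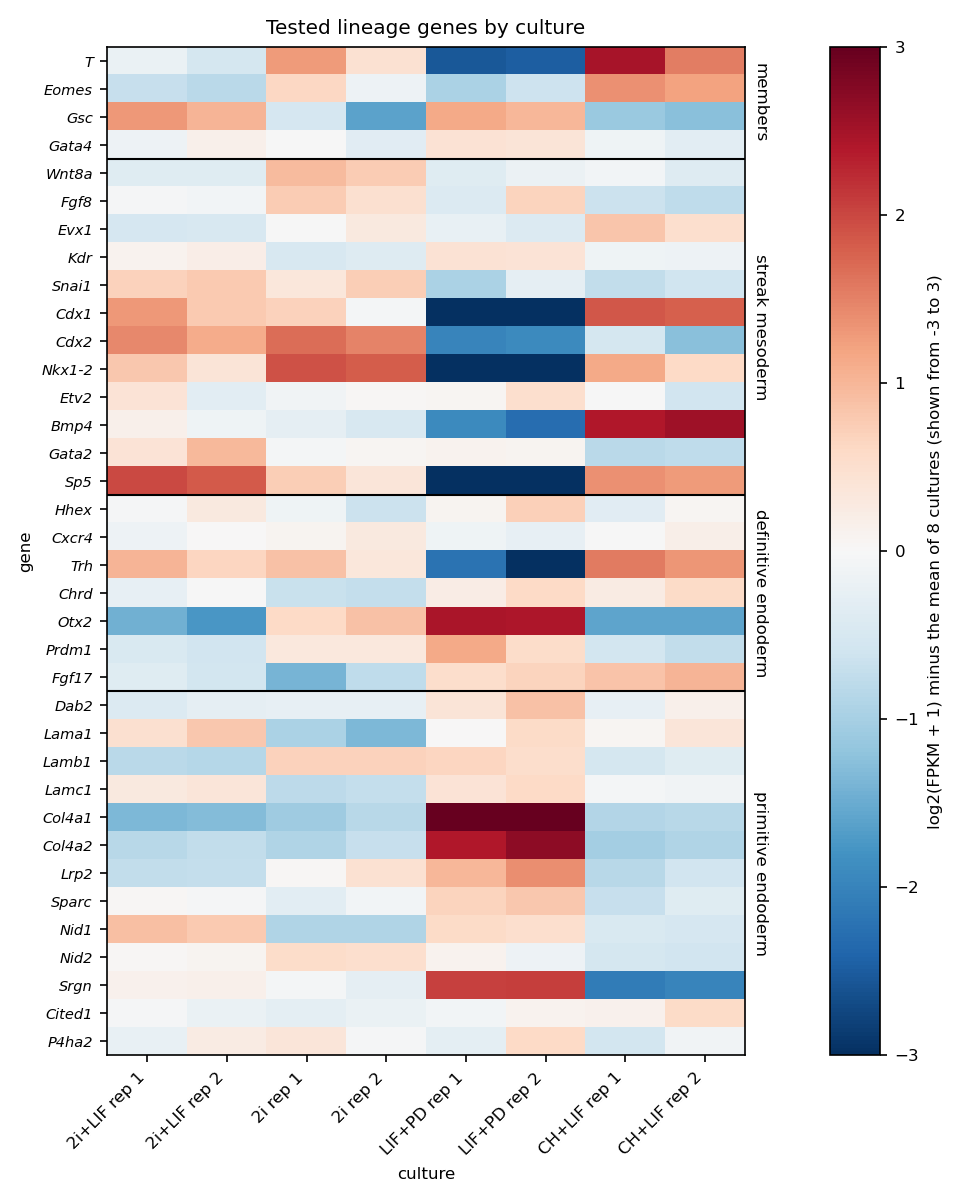
Difference of log2(FPKM + 1) in each of the 8 cultures (columns) from the mean of all 8, for the tested members and the tested genes of the streak, definitive endoderm and primitive endoderm lists (rows). The colour scale runs from -3 to 3 and larger differences take the end colours. In LIF+PD, T, Sp5, Cdx1, Cdx2 and Nkx1-2 lie below their means and Otx2, Col4a1 and Col4a2 above them.

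T and Eomes were next set beside genes of the Wnt pathway. Of 14 listed, 11 passed the filter, and Sp5 and Cdx1 are also in the streak list. From 2i+LIF to LIF+PD, 6 fell (10.4% of all genes did) and 1 rose (14.8%), with a median log2 difference of -0.48 against 0.03 over all genes. Axin2, a feedback inhibitor and direct target, was at 61.4 and 59.4 FPKM in 2i+LIF, 65.4 and 64.9 in 2i, 68.4 and 63.8 in CH+LIF, and 1.85 and 2.46 in LIF+PD. Axin2 was thus similar in the 3 conditions with CH, in which T ranged from 3.64 to 36.3 FPKM. The part of Wnt signalling in these T levels was not tested. From 2i+LIF, 1 of the 11 genes rose (Lef1) and 3 fell, both to 2i and to CH+LIF. Of all genes, 18.6% and 25.4% passed there. Sp5 fell by 1.36 ± 0.15 to 2i (adjusted p = 0.00163) and by 0.59 ± 0.15 to CH+LIF (0.0302). Notum fell by 0.57 ± 0.12 (0.0158) and by 1.05 ± 0.12 (0.00156). The others that fell were Tcf7l2 in 2i and Tcf7l1 in CH+LIF. Lef1, a nuclear partner of β-catenin, was higher in 2i (37.1 and 36.4 FPKM) and CH+LIF (31.3 and 17.9) than in 2i+LIF (6.02 and 5.46), with log2 differences of 2.49 ± 0.23 (adjusted p = 0.000712) and 1.88 ± 0.23 (adjusted p = 0.00219). Tcf7l1 (Tcf3), a repressor of Wnt targets in ESCs, was at 43.5 and 53.6 FPKM in CH+LIF and at 130.3 or more in every other culture, and fell by 1.55 ± 0.11 from 2i+LIF (adjusted p = 0.000364).

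Genes of the FGF and ERK pathway were mostly higher in CH+LIF, where PD was absent. Of 9 listed, 8 were tested. From 2i+LIF to CH+LIF, 6 rose (12.2% of all genes did) and 1 fell (13.3%), with a median log2 difference of 0.81 against 0.01. Egr1, among those that rose, reached 1 FPKM only in CH+LIF, so it could enter the test only by being high there. Spry4 was at 37.5 and 40.7 FPKM in CH+LIF and at no more than 2.17 in the other 6 cultures, the same split as for Eomes. In 2i against 2i+LIF, where T and Eomes had higher values, 1 rose (9.77% of all genes did) and 4 fell (8.86%). Etv4 fell by 3.15 ± 0.46 (adjusted p = 0.00463). The part of ERK signalling in T and Eomes was not tested.

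Gsc, a known Nodal target, was set beside 14 genes of the Nodal pathway, all of which were tested. From 2i+LIF to 2i, where Gsc fell, 4 rose (9.77% of all genes did) and 1 fell (8.86%), with a median log2 difference of 0.43 against 0.04. The gene that fell with Gsc was Tdgf1, from 217.5 and 185.4 FPKM to 112.1 and 70.4 (-1.17 ± 0.22, adjusted p = 0.0125). Tdgf1 was at 215.5 and 166.6 in LIF+PD and at 196.4 and 180.3 in CH+LIF. Nodal itself was at 39.9 and 35.3 FPKM in 2i+LIF, 68.5 and 60.3 in 2i, 14.7 and 18.0 in CH+LIF, and 52.3 and 48.9 in LIF+PD. Nodal rose by 0.76 ± 0.12 from 2i+LIF to 2i (adjusted p = 0.00682) and fell by 1.16 ± 0.12 to CH+LIF (adjusted p = 0.00148). Gsc was low in both conditions. The part of Nodal signalling in the level of Gsc was not tested. The targets Lefty1 and Lefty2 varied between replicates, with 66.4 and 3.08 FPKM for Lefty1 and 107 and 6.00 for Lefty2 in LIF+PD, where the replicates of Gsc were 6.77 and 6.10. From 2i to CH+LIF, 7 genes of the list fell (13.3% of all genes did) and 1 rose (10.6%), with a median of -0.53 against -0.03. Gsc differed by -0.13.

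**Figure D4:**
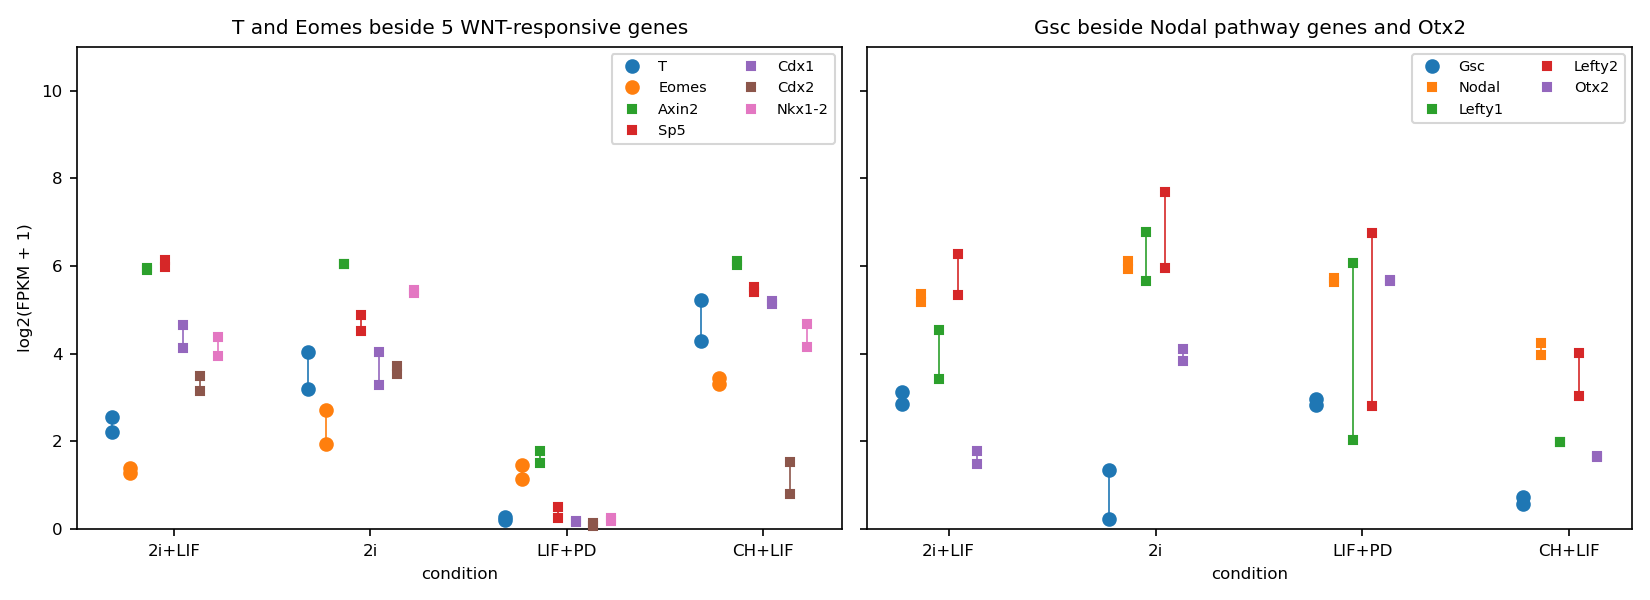
Levels as log2(FPKM + 1) (vertical axis) of T and Eomes with Axin2, Sp5, Cdx1, Cdx2 and Nkx1-2 (left) and of Gsc with Nodal, Lefty1, Lefty2 and Otx2 (right) in the 4 conditions. Each point is 1 culture and a line joins the 2 cultures of a condition. Axin2 stays between 59.4 and 68.4 FPKM in the 3 conditions with CH. In 2i, Nodal lies above and Gsc below the level in 2i+LIF.

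Markers of other cell types moved with some of these differences, and their part in them was not tested. The 12 neuroectoderm markers summed to 34.5 to 35.1 FPKM in LIF+PD, 14.3 to 17.0 in 2i, 9.15 to 9.73 in 2i+LIF and 5.25 to 6.23 in CH+LIF, an order opposite to that of T at both ends. Of these 12, 5 were tested and 3 rose from 2i+LIF to LIF+PD, where 14.8% of all genes rose. Pax6 was at 11.3 and 10.7 FPKM in LIF+PD and Neurod1 at 11.5 and 11.9, while Neurog2 was listed at 0 there. The 10 trophectoderm markers, which bear on Eomes, summed to 75.1 to 81.8 FPKM in 2i+LIF, 64.0 to 64.2 in 2i, 56.7 to 64.9 in CH+LIF and 94.0 to 109 in LIF+PD. From 2i+LIF to CH+LIF, 1 of the 7 tested rose and 2 fell (Cdx2 and Tfap2c), where 12.2% of all genes rose and 13.3% fell. The gene that rose was the keratin gene Krt18, from 0.973 and 1.23 FPKM to 3.98 and 4.28 (log2 difference 1.29 ± 0.19, adjusted p = 0.00429). Krt18 was also higher in LIF+PD, at 4.78 and 6.38 FPKM (1.64 ± 0.19, adjusted p = 0.00137), where Eomes stayed at 1.22 and 1.76. Krt8 was at 14.8 and 18.4 in 2i+LIF and 11.3 and 17.1 in CH+LIF. Hand1 and Plac1 were listed at 0 in all cultures of these 2 conditions, and Elf5 in both of CH+LIF. The 9 fibroblast markers summed to 221 to 609 FPKM, of which Vim, also made in ESCs, gave between 219.6 and 608, and Col3a1, Dcn and Lum were listed at 0 throughout. Thy1 rose from 0.117 and 0.160 FPKM in 2i+LIF to 1.40 and 3.44 in 2i (log2 difference 1.52 ± 0.27, adjusted p = 0.0102). In CH+LIF it was at 2.85 and 2.95 (1.78 ± 0.27, adjusted p = 0.00504). Eomes was higher in both, but Thy1 also rose in LIF+PD, where Eomes did not. There Thy1 was at 1.11 and 1.23 FPKM (0.93 ± 0.27, adjusted p = 0.04685).

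The genes whose levels were most like those of each tested member, by Pearson's r of log2(FPKM + 1) over the same 8 cultures, were Mcc, Exoc6b and Tiparp for T (r = 0.985, 0.985 and 0.983) and Hspa14, Gm15055 and Hibch for Eomes (0.983, 0.978 and 0.977). For Gsc they were Jam2, Zxdc and Dcaf12l1 (0.991, 0.981 and 0.979), and for Gata4 Casp14, Mst1 and Lrp1 (0.971, 0.962 and 0.955). These coefficients describe 8 cultures that cluster by condition, and each gene was picked as the highest among 12927.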

How the data were processed

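RNA-seq of 8 cultures of RGd2 ESCs, 2 per condition, was analysed. The authors deposited FPKM values for each gene and culture with a pair of bounds in the same unit, and the confidence level of the bounds is not given in the sources used here. According to the study's methods, single-end reads were aligned with tophat2 to mm10 with Ensembl 75 annotation and uniquely mapped reads were kept. The submitters' processing notes name TopHat2, Cufflinks and Cuffdiff. The methods speak of rRNA depletion, the labels of polyA RNA. FPKM depend on the transcript lengths and library totals used by the authors, and no strand setting is stated for them.

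Entries sharing an Ensembl identifier were summed. Deposited starts count from 0 and are printed with 1 added. Values were transformed as log2(FPKM + 1), on which the change of low genes is understated, and tested with limma 3.58.1 (R 4.3.3) with a mean-variance trend for the 12927 genes that reached 1 FPKM in 2 or more cultures. All 8 cultures were fitted together with 4 residual degrees of freedom, 6 comparisons were made, and an adjusted p (Benjamini-Hochberg, over all genes tested in a comparison) below 0.05 was called. Exact permutation tests used Python 3.11.15, numpy 2.4.6, pandas 2.3.3 and scipy 1.17.1, and matplotlib 3.10.9 drew the figures. Both procedures were tested on simulated data. Relative depth was taken from the most common FPKM ratio of weak genes, shared by 15.2% to 22.8% of 1135 to 1602 genes, so whole reads were not recovered and no counting error is given. Replicates had an r across genes of 0.974 to 0.983.

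The members and lists were chosen with earlier results of these data known. Besides the members, the genes named are those of each list that passed, at most the 3 with the largest change per comparison, and the 3 genes most like each tested member. Other list genes named (such as Evx1, Tbx6, Msgn1, Etv2, Hhex, Shh, Sox7, Lefty2 and Postn) were chosen after their values were seen. The values of 1 listed gene are not reported here. Sequences are from RefSeq. Alternatives were pseudocounts of 0.1 and 5, other filters, TPM, median-of-ratios and quantile scaling, ranks, a fit without the trend, fits of 4 cultures, a replicate block, and leaving out each culture.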

Additional observations from a re-analysis of the deposited data

How the results depend on the processing

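No member that was called changed direction under an alternative, and the 3 calls from 2i+LIF to CH+LIF were made under all of them. From 2i+LIF to 2i, the number of members called was 1 in place of 2 with a pseudocount of 5, the 0.1 FPKM filter, quantile normalization or only the 4 cultures compared, 3 with TPM or the replicate block, where T passed as well (adjusted p = 0.0313 with TPM), and 1 to 3 on leaving out single cultures. From 2i+LIF to LIF+PD, it was 0 in place of 1 with a pseudocount of 5 and stayed at 1 on leaving out single cultures. Between CH+LIF and 2i, it was 2 in place of 1 with the 0.1 FPKM filter, TPM or the replicate block, 0 with only the 4 cultures compared, and 0 to 2 on leaving out single cultures. Gata4 between CH+LIF and LIF+PD also missed the threshold with a pseudocount of 0.1, no filter, TPM, quantile normalization and the replicate block (adjusted p between 0.0515 and 0.116). The causes were not tested.

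For the differences among conditions, the exact permutation p of Mixl1 was 0.0476 with TPM, and that of Eomes was 0.0667 on ranks and 0.0833 with the replicate block, where the smallest possible p is 0.0417. In the comparisons of 1 condition with the rest, whose alternatives were added after seeing the data, a pseudocount of 5 gave T without PD 1.76 (exact permutation p = 0.0357) and T without CH -1.69 (0.0714). A pseudocount of 0.1 gave Foxa2 without LIF 1.68 (exact permutation p = 0.0714) and Sox17 without LIF -1.01 (0.0357), TPM gave Sox17 -0.143 (0.0357), and quantile normalization gave Gata4 without CH 0.402 (0.0714).

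The deviations of cultures that share a replicate number correlated across genes at only -0.0283 to 0.0925. No pairing was thus seen over all genes together, and pairing in a part of the genes was not tested. The replicate block raised the number of genes called in every comparison, such as from 2408 to 2547 for 2i against 2i+LIF. With the replicate block, T also passed between 2i and 2i+LIF (adjusted p = 0.0221 in this fit) and between CH+LIF and 2i (0.0251). Scaling to TPM moved the median of all genes by 0.117 from 2i+LIF to LIF+PD, 0.171 from 2i+LIF to CH+LIF and 0.118 from 2i to CH+LIF. The share of calls that were higher moved from 58.6% to 74.8%, 47.9% to 74% and 44.5% to 64% in these comparisons. With 2 cultures per condition and no read numbers, levels under 1 FPKM cannot be ranked reliably.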
